A study of Caenorhabditis elegans with 11 samples.

Results

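This account compares the microRNAs (miRNAs) of the oldest worms of the series, aged 20 days, with those of worms aged 10 days. The members were taken by the age in the sample labels: 2 libraries of 20 days and 3 libraries of 10 days, which is 5 of the 11 libraries of the series. The other libraries, 3 each of 1 and 5 days, entered the fit and are described only where they show the earlier course of a hairpin. All 4 ages are whole hermaphrodites of N2, the usual wild-type strain of the worm Caenorhabditis elegans, and no treatment or mutation is labelled in any of them. Total RNA was made into small RNA libraries and sequenced. No source used here says at which stage the count of days began. The labels do not state whether the libraries of an age are separate cultures, and p-values therefore measure a spread between libraries that may be technical. The authors' table holds 1 read count for each of 250 hairpins, the folded precursors that release mature miRNAs, both arms of a hairpin falling in 1 value. Of these, 145 had enough counts to be tested.

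A miRNA guides an Argonaute protein to messenger RNAs that pair with its seed, the short stretch near its 5′ end, and lowers their translation or stability. miRNAs with the same seed form a family and can share targets. In C. elegans several families time larval development, others act in the embryo or in a single tissue of the adult, and mutants of some miRNAs live longer or shorter than wild type.

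The 20-day libraries held 1650059 and 955506 counts, and the 10-day libraries 1032059, 1592781 and 1548317. Between 173 and 184 hairpins were detected in each of these 5 libraries. By library totals alone, before the TMM scaling named below, 1 count was worth 0.606 to 1.05 CPM (counts scaled to a common library size). Across hairpins, which do not count as replicates, log2 levels of the 4 same-age pairs of libraries had a Pearson's r of 0.994 to 0.996, and the 6 pairs that cross the ages had 0.974 to 0.979. The hairpins used as markers of muscle, intestine, glia, neurons and embryos each had a count in all 5 libraries. lsy-6 and mir-124 were the lowest of them, with 9 to 27 and 9 to 15 counts. No spike-in is named in the labels, so every level below is a relative abundance within its library. In RNA from whole animals, fewer cells of a type and less of a miRNA per cell cannot be told apart. Levels are given in CPM after TMM scaling (edgeR's trimmed mean of M-values) unless a share or a count is named.

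At 20 days mir-239b, mir-2208a, mir-1018, mir-2209a and mir-240 stood between 2.59-fold and 5.03-fold above their 10-day level, and mir-70, let-7, mir-241, mir-237 and mir-1 stood between 2.83-fold and 3.38-fold below it. edgeR's quasi-likelihood test called 65 of the 145 tested hairpins changed at a Benjamini-Hochberg adjusted p under 0.05, which is 44.8% of those tested. Of these, 29 (20.0%) were higher and 36 (24.8%) lower at 20 days, and 27 (18.6%) had changed by more than 2-fold. Over all tested hairpins the median log2 change was -0.09. In 98 hairpins (67.6%) the 20-day libraries did not overlap the 10-day libraries, with 40 (27.6%) above and 58 (40.0%) below. These are counts on TMM-scaled levels and were not repeated under other scalings. With 2 against 3 libraries, some hairpins would separate in this way with no change in level. The split of the calls into higher and lower followed the scaling of the libraries. It was 42 higher and 30 lower with RLE size factors, whose median log2 change lay 0.15 above that of TMM. It was 39 and 30 with DESeq2, 31 and 23 where a mean level of 50 CPM was required, and 45 and 31 with no filter on low counts. It was 23 and 47 with upper-quartile factors, which moved the median by -0.18. Without replicate 2 of the 1-day group it was 51 and 29, without replicate 1 of the 10-day group 50 and 28, without 20-day replicate 1 it was 42 and 26, and without 20-day replicate 2 it was 39 and 25. No call had the opposite sign under any of the 21 alternatives. Under every alternative in which they were tested 20 hairpins stayed higher, 8 of them over 2-fold by the TMM estimate, and 22 stayed lower, 12 of them over 2-fold.

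**Figure D1:**
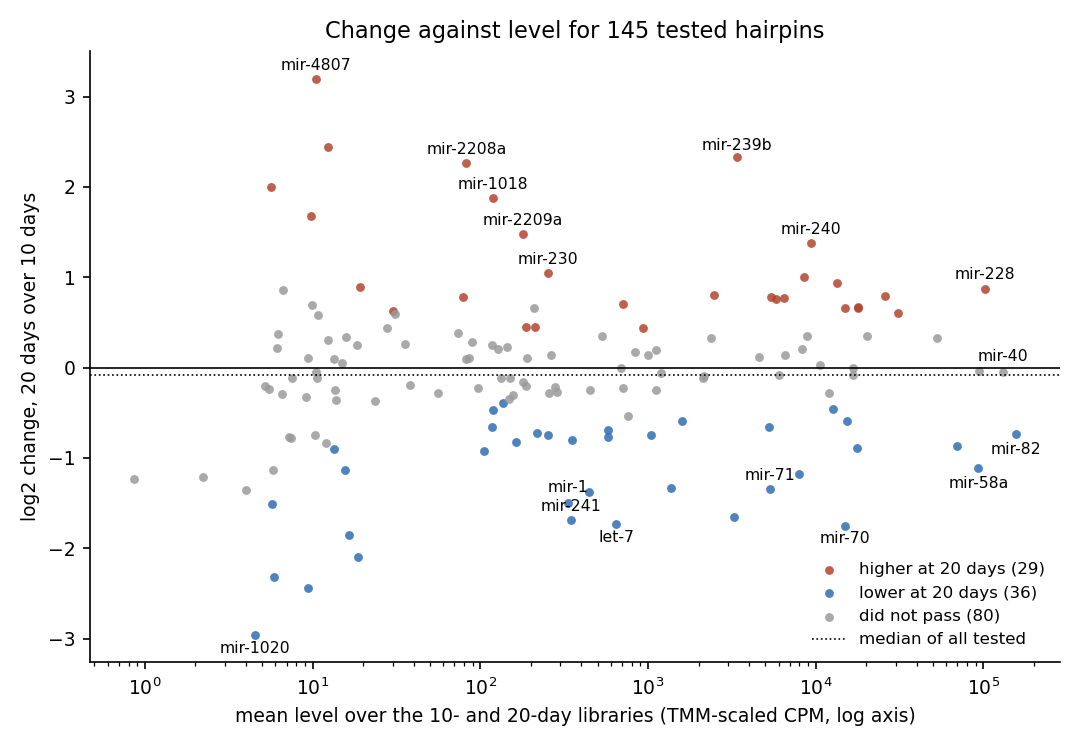
Each point is 1 of the 145 tested hairpins, with its mean level over the 10- and 20-day libraries on a log axis in TMM-scaled CPM and its log2 change, 20 days over 10 days, on the vertical axis; colours mark the 29 hairpins higher and the 36 lower at 20 days. The dotted line is the median of all tested hairpins, at -0.09, and mir-239b at 2.33 and mir-70 at -1.76 lie far from it at high levels.

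The largest rise at a mean level of 50 CPM or more was that of mir-239b, a hairpin whose deletion together with mir-239a has been linked to longer life. mir-239b stood at 4888 and 8239 CPM in the 20-day libraries and at 1238, 1720.5 and 953 CPM in the 10-day libraries. The ages did not overlap, and the lower 20-day library was well above the highest 10-day library. The means were 6564 ± 2369.6 CPM at 20 days (SD, n = 2) and 1304 ± 388 CPM at 10 days (SD, n = 3), 5.03-fold higher at 20 days, a log2 change of 2.33 ± 0.25 (SE; adjusted p = 6.43e-07). Without 20-day replicate 1 the log2 change was 2.93. mir-239b lies outside protein-coding genes on the minus strand (X, 11791302 to 11791399, WBcel235), close to mir-239a on the other strand (X, 11792445 to 11792542). mir-239a stood at 2440.5 and 2933 CPM at 20 days and at 2128, 2674 and 1619.7 CPM at 10 days. Its libraries overlapped, and its log2 change of 0.33 ± 0.20 (SE; 95% interval -0.07 to 0.72) did not pass with TMM scaling, though it passed in 4 of the 21 alternatives. The ratio of mir-239b to mir-239a counts, which no scaling of libraries touches, was 2.00 and 2.81 in the 20-day libraries and 0.582, 0.643 and 0.589 in the 10-day libraries. The more abundant hairpin of the pair was thus mir-239b at 20 days and mir-239a at 10 days. mir-238, the remaining member of that seed family, was not called (log2 change 0.21 ± 0.13 (SE)) but passed in 12 of the 21 alternatives. Of the family 1 of 3 members rose and none fell, with a median log2 change of 0.33 against -0.09 for all tested hairpins. Over all tested hairpins 20.0% were higher and 24.8% lower.

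Neighbouring hairpins were among the largest rises. A first group is a run on chromosome IV that holds mir-2208a, mir-2208b and mir-2209a. mir-2208a (IV, 1021772 to 1021832, plus strand) stood at 152 and 163 CPM at 20 days and at 34.3, 33.1 and 31.2 CPM at 10 days, a rise of 4.79-fold (log2 change 2.26 ± 0.17 (SE), adjusted p = 1.84e-08). The libraries of each age lay close together and far from those of the other. mir-2209a (IV, 1027101 to 1027164, plus strand), which shares the seed of the mir-58 family, stood at 311 and 275 CPM at 20 days and at 102, 103 and 111 CPM at 10 days, 2.79-fold higher. mir-2208b was low, with 29 and 28 counts at 20 days and 5, 7 and 4 counts at 10 days, and its log2 change of 2.44 ± 0.48 (SE) passed (3.10 without 20-day replicate 1). All 3 tested hairpins of the run were higher at 20 days, against 20.0% of all tested hairpins.

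Another group of neighbours lies on chromosome X and has mir-4807, mir-2220 and mir-1018 as its tested hairpins. mir-1018 (X, 1879458 to 1879513, plus strand) stood at 226 and 194 CPM at 20 days and at 74.1, 48.0 and 53.5 CPM at 10 days, 3.68-fold higher (log2 change 1.88 ± 0.20 (SE), adjusted p = 6.43e-07). mir-4807 (X, 1872466 to 1872526, plus strand) had 35 and 21 counts at 20 days and 3, 2 and 4 counts at 10 days. Its log2 change of 3.20 ± 0.45 (SE) was the highest of all tested hairpins and rests on few reads at 10 days. mir-2220 had 20 and 7 counts at 20 days and 2, 3 and 5 counts at 10 days, and its call was lost with lane as a term and without 20-day replicate 1 (1.78). All 3 tested hairpins of the group were called higher with TMM scaling, against 20.0% of all tested hairpins. mir-1018 and mir-4807 were among the 20 of 145 called higher under every alternative in which they were tested.

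mir-240 and mir-786 are also neighbours on chromosome X, and mir-786 acts in the intestine, where it sets the defecation rhythm. mir-240 (X, 7882622 to 7882718, plus strand) stood at 10356 and 19485 CPM at 20 days and at 5761, 5183 and 6303 CPM at 10 days, a rise of 2.59-fold (log2 change 1.38 ± 0.23 (SE), adjusted p = 8.31e-05). The ages did not overlap, but the 20-day libraries differed from each other by more than the 10-day libraries did. With lane as a term the log2 change was 0.73, and without 20-day replicate 1 it was 2.06. mir-786 stood at 1102 and 1117 CPM at 20 days and at 939, 748 and 773 CPM at 10 days, a smaller rise (log2 change 0.44 ± 0.15 (SE), adjusted p = 0.0226). It no longer passed with upper-quartile factors (0.26) or without 10-day replicate 2 (0.38) or 10-day replicate 3 (0.40). The ratio of mir-240 to mir-786 counts was 9.40 and 17.4 at 20 days and 6.14, 6.93 and 8.16 at 10 days.

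Among abundant hairpins, mir-228 and mir-246 rose. mir-228, a glial miRNA of C. elegans, stood at 122154 and 157292 CPM at 20 days and at 82686, 71031 and 76402 CPM at 10 days. Its rise was 1.82-fold (log2 change 0.87 ± 0.14 (SE), adjusted p = 8.21e-05), without overlap. It was the hairpin with the most or second most counts in each 20-day library (ranks 2 and 1) and held rank 6 in every 10-day library. mir-246, whose loss has been linked to shorter life, stood at 19125 and 18571 CPM at 20 days and at 9596, 9645 and 10287 CPM at 10 days, 1.91-fold higher (adjusted p = 5.34e-06). Replicates of each age lay closer together for mir-246 than for mir-228. mir-34, which acts in the response to DNA damage, stood at 3698 and 2981 CPM at 20 days and at 2233, 1759 and 1772 CPM at 10 days (log2 change 0.80 ± 0.15 (SE), adjusted p = 0.000308). mir-54 (8036 and 16172 CPM at 20 days, 7929, 4361 and 5899 CPM at 10 days) was called with a log2 change of 1.00 ± 0.25 (SE), but its lower 20-day library was barely above its highest 10-day library. Its log2 change was 0.36 with lane as a term, where the call was lost, and 1.72 without 20-day replicate 1.

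**Figure D2:**
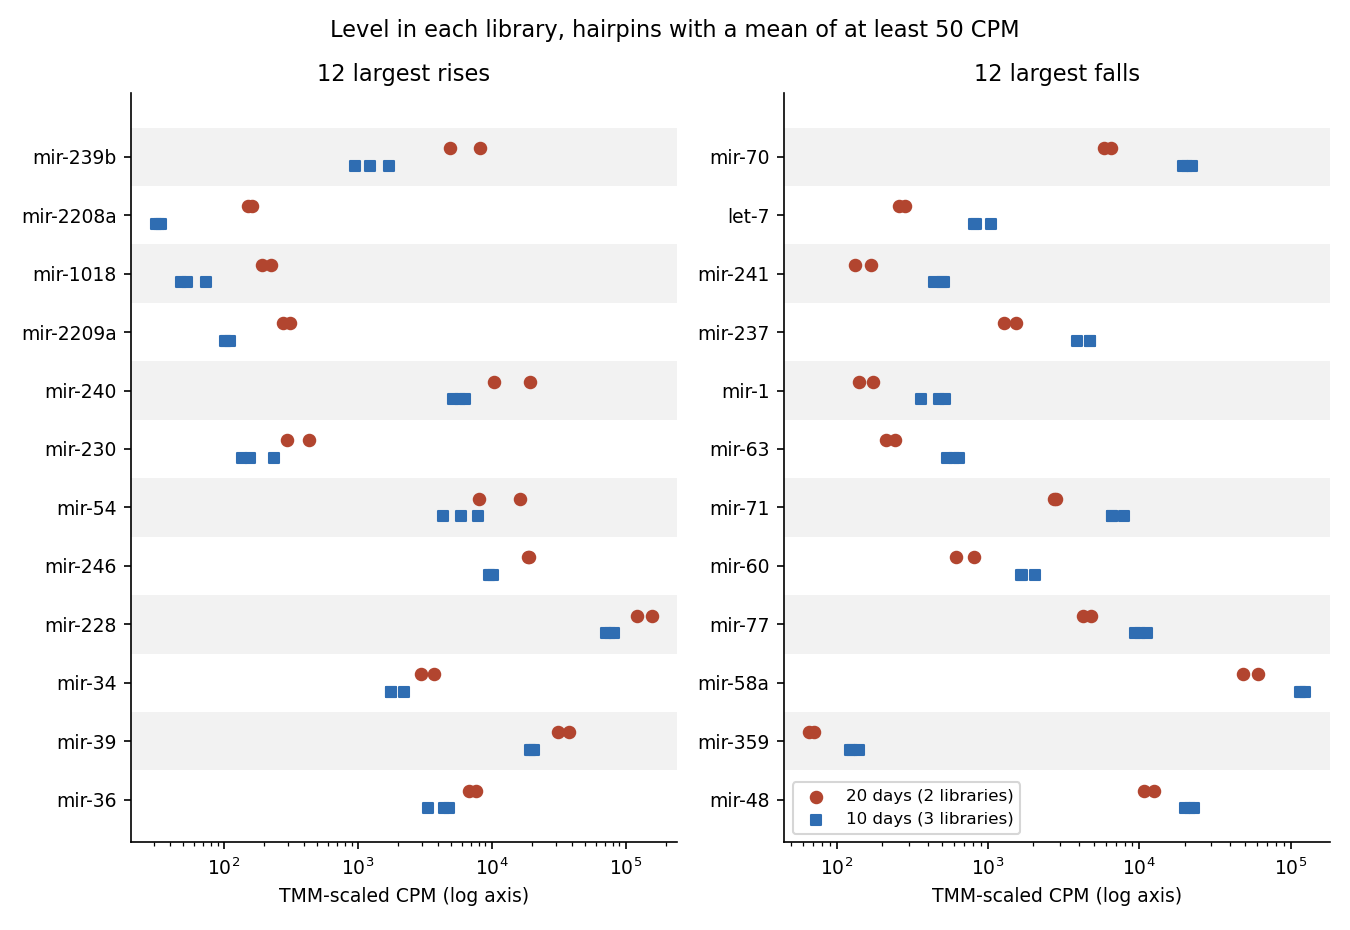
Level in each library, in TMM-scaled CPM on a log axis, of the 12 largest rises (left) and the 12 largest falls (right) among called hairpins with a mean level of 50 CPM or more; circles are the 2 libraries of 20 days and squares the 3 libraries of 10 days. No hairpin shown has a 20-day library within the range of its 10-day libraries, and mir-54, at 8036 against 7929 CPM, comes nearest.

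Several hairpins that fell belong to the heterochronic families, which time the larval stages. let-7, which drives the passage from larva to adult, stood at 259 and 282 CPM at 20 days and at 1051, 813 and 837 CPM at 10 days. It fell 3.33-fold (log2 change -1.73 ± 0.16 (SE), adjusted p = 2.00e-07). Its seed relatives mir-48 and mir-241, which act earlier in larval life and lie together on chromosome V, fell as well. mir-241 (V, 14366188 to 14366283, minus strand) stood at 132 and 168 CPM at 20 days and at 513, 438 and 497 CPM at 10 days, 3.23-fold lower. mir-48 (V, 14364412 to 14364509, minus strand) stood at 10813 and 12455 CPM at 20 days and at 21564, 20036 and 22858 CPM at 10 days, with a log2 change of -0.89 ± 0.12 (SE). No 20-day library of these 3 hairpins reached the 10-day range, and all 3 were lower under all 21 alternatives. Over all tested hairpins the 20-day libraries of 40.0% lay below without overlap. Of the 145 tested, 22 were lower under every alternative in which they were tested.

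The fourth heterochronic relative, mir-84, stood apart, with 5977 and 7948 CPM at 20 days and 7614, 4938 and 6491 CPM at 10 days (log2 change 0.13 ± 0.18 (SE); 95% interval -0.21 to 0.48). Its ages overlapped, it did not pass, and its sign turned under some alternatives. The ratio of let-7 to mir-84 counts was 0.0433 and 0.0355 at 20 days and 0.138, 0.165 and 0.129 at 10 days. mir-793 was called higher (log2 change 0.45 ± 0.14 (SE), adjusted p = 0.0172). The call of mir-793 was lost with upper-quartile factors (0.27), with lane as a term (0.43) and without 10-day replicate 2 (0.36). mir-794 (-0.12) and mir-795 (0.21) did not pass. Of the 7 let-7 family members tested, 1 was higher, 3 were lower and 3 did not pass, with a median log2 change of -0.12 against -0.09 for all tested hairpins, of which 20.0% were higher and 24.8% lower. The 3 falls held under all 21 alternatives, but the number higher ran between 0 (upper-quartile factors, lane as a term, or without 10-day replicate 2) and 3 (without 10-day replicate 1). mir-84 was called higher in 2 alternatives and mir-795 in 4. The median was positive with RLE factors (0.03), DESeq2 (0.03), no filter (0.07) and a mean of 50 CPM or more (0.02). With a library left out it was 0.24 without 20-day replicate 1 and 0.13 without replicate 2 of the 1-day group. It was 0.06 without 10-day replicate 1, 0.04 without 20-day replicate 2 and 0.02 without 10-day replicate 3.

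lin-4, which ends the first larval programme by lowering LIN-14, stood at 398 and 411 CPM at 20 days and at 700.1, 616 and 746 CPM at 10 days (log2 change -0.76 ± 0.14 (SE), adjusted p = 0.000266). Its seed relative mir-237 fell further, with 1284 and 1545 CPM at 20 days and 4736, 3896 and 4752 CPM at 10 days, 3.16-fold lower (log2 change -1.66 ± 0.16 (SE), adjusted p = 2.28e-07). Both members of the lin-4 family were thus lower at 20 days without overlap, with a median log2 change of -1.21. Over all tested hairpins 24.8% were called lower, the 20-day libraries of 40.0% lay below without overlap, and the median was -0.09. The family held 0.159% and 0.189% of all counts at 20 days and 0.476%, 0.437% and 0.478% at 10 days.

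mir-70 had the largest fall at a mean level of 50 CPM or more. It stood at 5877 and 6475 CPM at 20 days and at 20802, 19577 and 22259 CPM at 10 days, 3.38-fold lower (log2 change -1.76 ± 0.13 (SE), adjusted p = 1.84e-08). mir-70 lies in an intron of pmp-5, which codes for a peroxisomal transporter, on the same strand (V, 6665536 to 6665635, minus). mir-71, whose loss shortens life in C. elegans, stood at 2737 and 2817 CPM at 20 days and at 7930.5, 6630.4 and 6607 CPM at 10 days, 2.54-fold lower (log2 change -1.35 ± 0.13 (SE), adjusted p = 2.84e-07). mir-71 and mir-2 both lie in introns of ppfr-1 on chromosome I, on its strand. mir-2 did not follow: it stood at 599.6 and 613 CPM at 20 days and at 539.8, 437 and 451 CPM at 10 days, which did not pass (log2 change 0.35 ± 0.15 (SE), adjusted p = 0.0633) but did so in 13 of the 21 alternatives. The ratio of mir-2 to mir-71 counts was 0.219 and 0.218 at 20 days and 0.0681, 0.0659 and 0.0683 at 10 days, so that hairpins of 1 host gene had parted 3.24-fold.

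Hairpins known for single tissues of the worm moved in both directions. mir-1, the muscle miRNA, stood at 175 and 140.0 CPM at 20 days and at 519.9, 473 and 359 CPM at 10 days, 2.83-fold lower (log2 change -1.50 ± 0.23 (SE), adjusted p = 3.12e-05). mir-60, an intestinal miRNA, stood at 614 and 815 CPM at 20 days and at 2061, 1689 and 1646 CPM at 10 days, 2.52-fold lower (adjusted p = 6.04e-06). Both fell without overlap, while the intestinal mir-786 and the glial mir-228 rose. The 20-day libraries of 40.0% of all tested hairpins lay below without overlap. Of the neuronal hairpins, lsy-6 had 7.03 and 9.77 CPM at 20 days and 14.4, 17.5 and 11.1 CPM at 10 days (log2 change -0.83 ± 0.37 (SE)) and did not pass. mir-124 (log2 change 0.10 ± 0.34 (SE)) and mir-791 (-0.37 ± 0.30) did not pass either. In all, 3 of the 8 tissue-restricted hairpins tested were higher, 2 were lower and 3 did not pass, with a median log2 change of -0.13, against 20.0% higher, 24.8% lower and a median of -0.09 over all tested hairpins. The sign of this median followed the scaling, at 0.01 with RLE factors, -0.29 with upper-quartile factors and 0.16 without 20-day replicate 1, and 2 to 3 were higher and 2 to 3 lower under the alternatives.

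The 11 hairpins that have been linked to lifespan divided evenly. mir-239b, mir-246, mir-228 and mir-34 were higher at 20 days, and mir-71, mir-80, let-7 and lin-4 were lower. mir-238, mir-239a and mir-83 (log2 change -0.54 ± 0.24 (SE), adjusted p = 0.0754) did not pass. The median log2 change of these 11 was 0.21, and over the alternatives 4 to 6 were higher and 4 to 5 lower. Of these 11, 72.7% were called, against 44.8% of all tested hairpins. The list was chosen with earlier results of these data known. The share called also differed with level, from 27.3% under 10 CPM to 64.7% at 5000 CPM or more. Over all tested hairpins 20.0% were higher and 24.8% lower, with a median of -0.09. Both directions held hairpins whose loss has been linked to longer life, mir-239b among those higher and mir-80 among those lower. For mir-239b that link is from its deletion together with mir-239a. Both directions also held hairpins whose loss has been linked to shorter life, mir-246 among those higher and mir-71 among those lower. The called hairpins mir-228, mir-34, let-7 and lin-4 were not sorted in this way. The ratio of mir-246 to mir-71 counts was 6.99 and 6.59 at 20 days and 1.21, 1.45 and 1.56 at 10 days.

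The families with the largest shares of counts were the mir-58 family, whose seed is that of the fly growth regulator bantam, and the mir-35 family, made in oocytes and embryos and needed for embryonic survival. The mir-58 family held 22.4% and 20.6% of all counts at 20 days and 36.6%, 37.0% and 36.5% at 10 days. The mir-35 family held 30.2% and 27.8% at 20 days and 24.1%, 25.7% and 25.6% at 10 days. The larger share thus belonged to the mir-35 family in both 20-day libraries and to the mir-58 family in all 3 libraries of 10 days.

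In the mir-58 family, mir-82 stood at 116759 and 105680.0 CPM at 20 days and at 186500.0, 171706 and 197436 CPM at 10 days (log2 change -0.74 ± 0.12 (SE), adjusted p = 8.14e-05). It had the most counts of any hairpin in every library of 1, 5 and 10 days and rank 3 in both 20-day libraries, where mir-40 and mir-228 stood at the top of 1 library each. mir-58a stood at 61358 and 48834 CPM at 20 days and at 124491, 117355 and 114930.0 CPM at 10 days, 2.16-fold lower (adjusted p = 1.02e-05). mir-80 fell too, with 44995 and 47576 CPM at 20 days and 88194, 75973 and 89055 CPM at 10 days (log2 change -0.87 ± 0.12 (SE)). mir-81 had a log2 change of -0.60 ± 0.13 (SE), called lower with an adjusted p of 0.000756, which was lost without 20-day replicate 2 (-0.29). mir-2209a was the exception, and the ratio of its counts to those of mir-82 was 4.63 times higher at 20 days. Of the 8 listed members that the authors counted, 6 were tested, of which 1 was higher, 4 were lower and 1, mir-58b, did not pass on few counts. Their median log2 change was -0.67, against -0.09 over all tested hairpins, of which 20.0% were higher and 24.8% lower.

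Members of the mir-35 family did not move alike. mir-39 stood at 37720.4 and 31441 CPM at 20 days and at 19841, 19368 and 20636 CPM at 10 days (log2 change 0.79 ± 0.13 (SE), adjusted p = 7.88e-05). mir-36 stood at 6822 and 7696 CPM at 20 days and at 3373, 4811 and 4436 CPM at 10 days, with a like log2 change of 0.79 ± 0.15 (SE). mir-42 (0.70 ± 0.15) and mir-37 (0.61 ± 0.15) were called higher as well, mir-37 not with upper-quartile factors (0.43). mir-40 and mir-35, the most abundant of the family, overlapped between the ages. mir-40 stood at 133500.0 and 122186 CPM at 20 days and at 134902, 117265 and 144605 CPM at 10 days (log2 change -0.05 ± 0.14 (SE); 95% interval -0.33 to 0.23). mir-35 had a log2 change of -0.04 ± 0.14 (SE; 95% interval -0.31 to 0.24). The signs of both turned with RLE or total-count scaling, at 0.11 or less. mir-38 (0.19) and mir-41 (0.10) did not pass. Against mir-35 in the same library, the counts of mir-36, mir-37, mir-39 and mir-42 were 1.79, 1.55, 1.77 and 1.66 times higher at 20 days without overlap, while those of mir-40 and mir-41 overlapped. In all, 4 of 8 members rose and none fell, and 3 to 5 rose under the alternatives. Over all tested hairpins 20.0% were higher and 24.8% lower. The family's median log2 change was 0.40, against -0.09 for all tested hairpins.

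**Figure D3:**
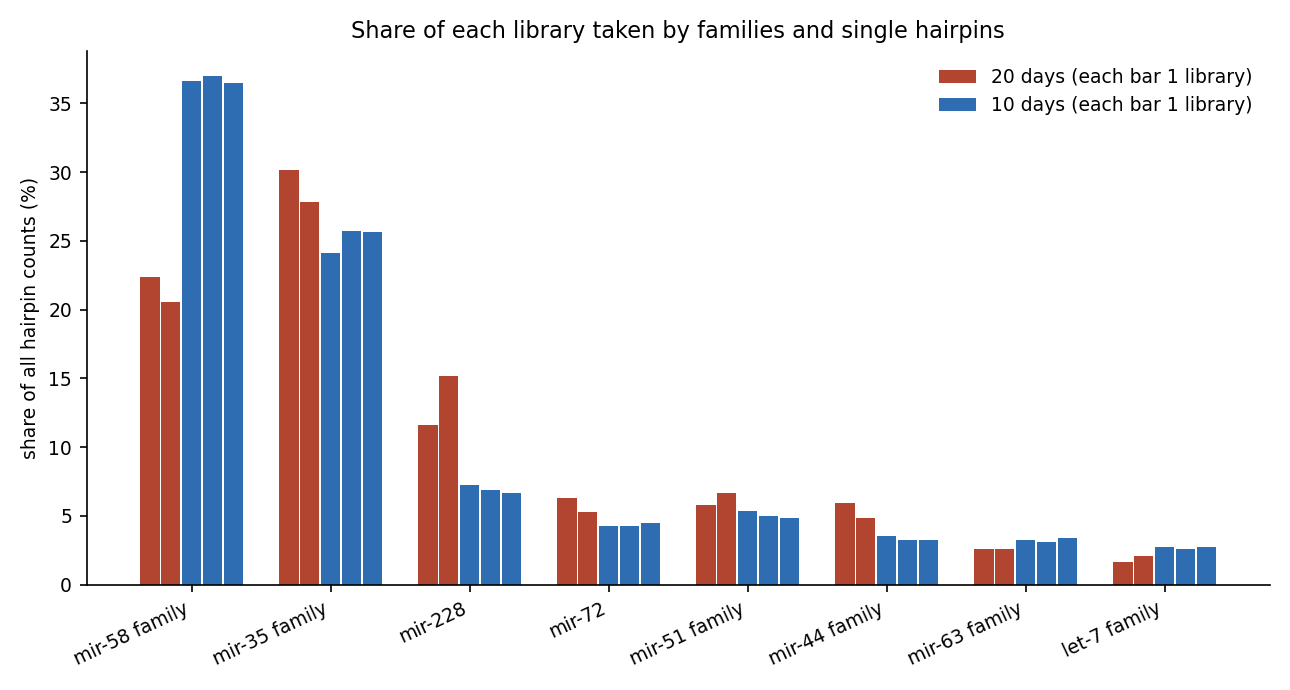
Share of all hairpin counts, in percent, taken by families and by the single hairpins mir-228 and mir-72; each bar is 1 library, with the 2 libraries of 20 days left of the 3 of 10 days. The mir-58 family took 22.4% and 20.6% at 20 days and 36.5% to 37.0% at 10 days, and mir-228 took 11.6% and 15.2% at 20 days and 6.64% to 7.24% at 10 days.

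Of the smaller families, those of mir-44, mir-50, mir-72, mir-2 and mir-51 had members that were higher at 20 days and none that were lower. Over all tested hairpins 20.0% were higher and 24.8% lower, with a median log2 change of -0.09. In the mir-44 family mir-44 (log2 change 0.66 ± 0.15 (SE)) and mir-45 (0.67 ± 0.16) were called. Their counts agree within 0.990 to 1.03 in all 11 libraries, so reads of the pair may not be told apart. mir-61 (0.35, adjusted p = 0.0598) did not pass, and passed in 14 of the 21 alternatives. The family's median was 0.66 over 3 tested of 4 listed members, and its share of counts was 5.91% and 4.84% at 20 days and 3.53%, 3.22% and 3.25% at 10 days. In the mir-50 family mir-90 (0.66 ± 0.17) and mir-62 (0.62 ± 0.24) were called and mir-50 (-0.01) was not, with a median of 0.62. The call of mir-62 rests on few counts and was lost in 8 alternatives, including those without 20-day replicate 1 (0.93), 20-day replicate 2 (0.80), 10-day replicate 3 (0.42), and replicates 1 (0.67) and 3 (0.62) of the 5-day group.

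In the mir-72 family, relatives of vertebrate miR-31, mir-73 (log2 change 0.76 ± 0.14 (SE)) was called, and the median was 0.33. mir-72 (0.33 ± 0.13, adjusted p = 0.0515) missed the threshold and passed in 16 of the 21 alternatives, and mir-74 (0.14) did not pass. In the mir-2 family mir-43 (0.78 ± 0.16) and mir-797 (1.68 ± 0.43) were called, mir-2 and mir-250 (-0.23) were not, and the median was 0.57. mir-797 had 22 and 18 counts at 20 days and 4, 3 and 12 counts at 10 days. It lost its call with lane as a term (1.03), and without 10-day replicate 3 its log2 change was 2.46. In the mir-51 family, relatives of vertebrate miR-100, mir-52 (0.77 ± 0.19) and mir-54 were called. mir-51 (-0.09), mir-53 (0.17), mir-55 (0.02) and mir-56 (0.00) did not pass, and the median was 0.09 (-0.09 with upper-quartile factors, -0.02 without 10-day replicate 2).

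In the mir-63 family the called members were lower. mir-63 stood at 213 and 243 CPM at 20 days and at 640.4, 538 and 596 CPM at 10 days, 2.59-fold lower (log2 change -1.38 ± 0.14 (SE), adjusted p = 5.33e-07). mir-66 (-0.66 ± 0.14) and mir-65 (-0.45 ± 0.14) were called lower too, and mir-64 (-0.28) and mir-229 (-0.11) did not pass. The family's median was -0.45 over 5 members, against -0.09 over all tested hairpins, of which 24.8% were lower. mir-65 lost its call in 9 alternatives, among them RLE scaling (-0.30) and those without either 20-day library (-0.19 without replicate 1, -0.20 without replicate 2), 10-day replicate 1 (-0.21), 10-day replicate 3 (-0.39) or replicate 2 of the 1-day group (-0.20). Of the 12 tested hairpins of seed pairs, mir-75 (-0.82), mir-79 (-0.75), mir-47 (-0.74) and mir-49 (-0.69) were lower, none was higher, 8 did not pass and the median was -0.24, against 24.8% lower, 20.0% higher and a median of -0.09 over all tested hairpins. These counts did not hold with single libraries left out: 4 were higher and 3 lower without replicate 2 of the 1-day group, 3 and 3 without 10-day replicate 1 (median 0.05), and 2 and 2 without 20-day replicate 2 (median 0.07). mir-75 lost its call without 20-day replicate 2 (-0.53). mir-49 lost its call without 20-day replicate 1 (-0.62), 20-day replicate 2 (-0.29), 10-day replicate 1 (-0.41) or replicate 2 of the 1-day group (-0.44). mir-47 and its seed relative mir-46 parted, with count ratios of 0.635 and 0.655 at 20 days and 1.07, 0.993 and 1.03 at 10 days.

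**Figure D4:**
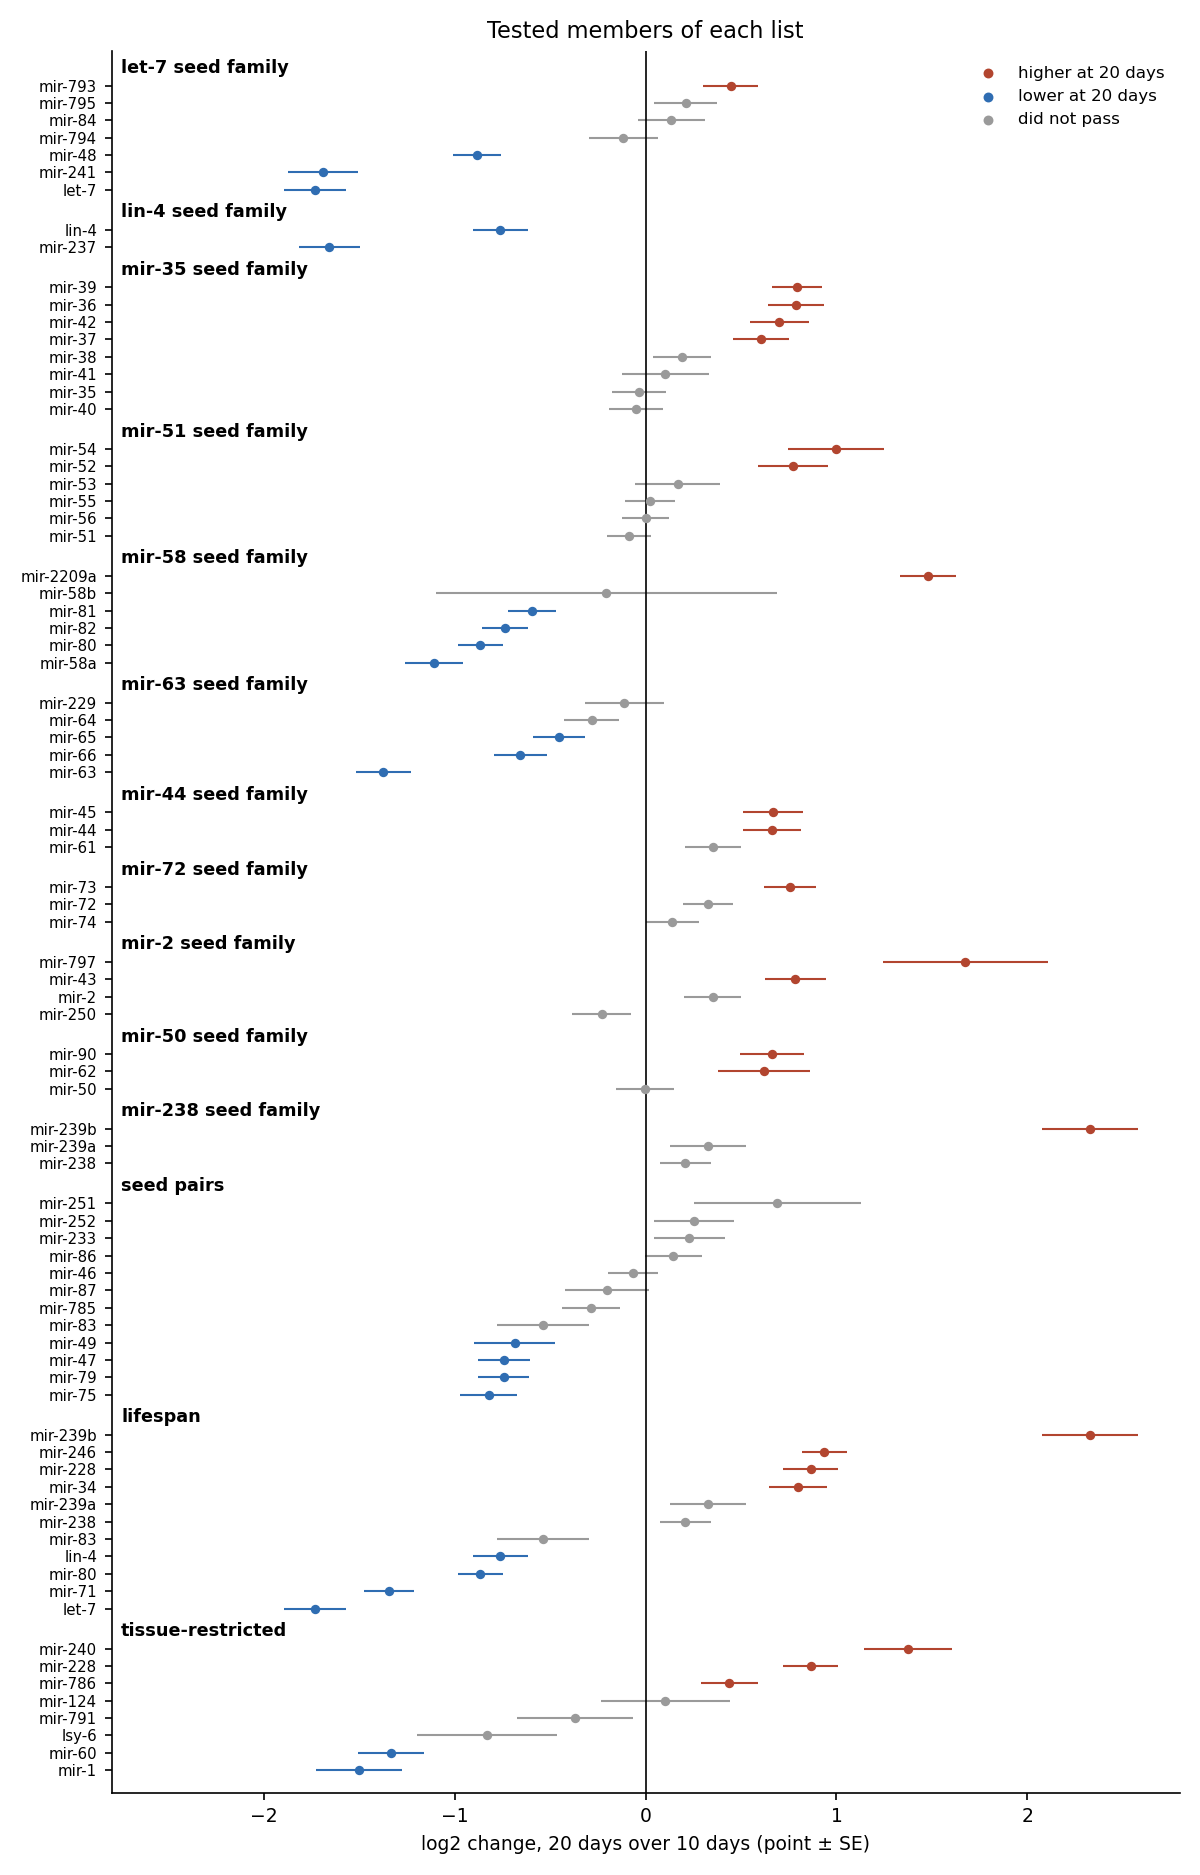
Log2 change, 20 days over 10 days, with its SE for every tested member of the 14 lists; colours mark members higher, lower or not passing. In this fit the mir-58 and mir-63 families lie mostly left of 0 and the mir-35 and mir-44 families at or right of it, while the let-7 family and the lifespan list have members on both sides.

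The 12 largest falls at a mean level of 50 CPM or more also held mir-77 and mir-359. mir-77 stood at 4799 and 4272 CPM at 20 days and at 11283, 9374 and 10089.7 CPM at 10 days, 2.26-fold lower (adjusted p = 2.12e-06). mir-359 stood at 65.8 and 70.6 CPM at 20 days and at 142, 126 and 122 CPM at 10 days (log2 change -0.93 ± 0.15 (SE)). Below a mean of 50 CPM the largest falls rest on few reads. mir-1020 had 0 and 2 counts at 20 days and 7, 14 and 5 counts at 10 days, mir-8199 had 3 and 3 against 17, 21 and 13 counts, and mir-78 had 1 and 3 against 8, 14 and 10 counts. Their log2 changes of -2.96 ± 0.87, -2.44 ± 0.49 and -2.32 ± 0.61 (SE) were called, and all of these calls were lost without 20-day replicate 1 (-1.35, -1.75 and -1.07). Without 20-day replicate 2 mir-1020 was at -6.28 and mir-78 at -3.37.

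By place in the genome (WBcel235), 15 hairpins of chromosome X were higher and 11 lower of 48 tested (54.2% called, against 44.8% of all tested hairpins, of which 20.0% were higher and 24.8% lower). With TMM scaling none was higher and 5 of 14 were lower on chromosome I. On chromosome V none was higher and 3 of 13 were lower. Under the alternatives hairpins of both were called higher, among them mir-2 in 13 and mir-795 in 4 on chromosome I. On chromosome V mir-61 was called higher in 14 of the alternatives. Of 34 hairpins in introns on the strand of the host gene, 3 were higher and 11 lower (41.2% called), with a median log2 change of -0.21. Of 86 outside protein-coding genes, 22 were higher and 20 lower (48.8% called), with a median of 0.01. These are counts of hairpins that share clusters and were not tested against each other. Neighbours were called in the same direction in the runs of mir-42 to mir-44 (3 of 3 higher), mir-240 and mir-786 (both higher) and mir-48 and mir-241 (both lower). Their sizes of change could differ. The ratio of mir-241 to mir-48 counts was 0.0122 and 0.0135 at 20 days and 0.0238, 0.0218 and 0.0217 at 10 days. That of mir-240 to mir-786 was 1.82 times higher at 20 days, and the call of mir-786 was lost in 3 alternatives. Neighbours were called in opposite directions in the run of mir-73 to mir-75, where mir-73 was higher and mir-75 lower, and in that of mir-80, mir-238 and mir-90. There mir-80 fell and mir-90 rose, and the ratio of mir-90 to mir-80 counts was 0.466 and 0.369 at 20 days and 0.152, 0.137 and 0.143 at 10 days.

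Calls were more frequent where more reads were counted. Of 34 hairpins with 5000 CPM or more, 64.7% were called, and of 22 under 10 CPM 27.3%. Lane 7 was the only lane with libraries of both ages. With lane as a fixed term in the model 61 hairpins were called, 56 of which were among the 65. That model had nearly as many terms as libraries. Several lanes held a single library, among them the lane of 10-day replicate 2, which then adds nothing to the contrast. Calls kept or lost with lane as a term are therefore a weak check and cannot decide whether lane played a part. The 20-day libraries differed from each other by more than 2-fold in 11 of 145 hairpins, of which only mir-54 and mir-1820 had a mean level of 50 CPM or more.

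Whether the change after 10 days carried on that of the days before was asked by setting the step between 10 and 20 days against the step between 5 and 10 days in the same fit. The steps are 10 and 5 days long and share the 10-day libraries. They differed in 32 of 145 hairpins (22.1%), with 6 (4.14%) higher and 26 (17.9%) lower in the later step. This split followed the scaling as well, at 20 higher and 18 lower with RLE factors and 2 higher and 57 lower with upper-quartile factors. In every setting in which they were tested 9 hairpins differed. mir-230 alone of these was higher in the later step: it averaged 1290.4, 466, 177 and 365 CPM at 1, 5, 10 and 20 days. In single libraries mir-230 stood at 432 and 297 CPM at 20 days and at 158, 136 and 237 CPM at 10 days, 2.07-fold higher without overlap (adjusted p = 0.000348). The difference of its steps was 2.44 ± 0.35 (SE) on the log2 scale (adjusted p = 0.00014).

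The other 8 were lower in the later step, and several had risen until 10 days. mir-58a averaged 51218, 93971, 118925 and 55096 CPM at 1, 5, 10 and 20 days, and the difference of its steps was -1.45 ± 0.23 (SE). mir-77 averaged 4382, 8856, 10249 and 4535 CPM, and mir-48 averaged 12757, 15693, 21486 and 11634 CPM, at the same ages. For these 3 hairpins the 20-day averages lay close to the 1-day averages. mir-66 (-1.18 ± 0.22), mir-79 (-1.18 ± 0.21) and mir-354 (-4.08 ± 0.61) had differences in the same direction. mir-354 lies in an exon of the ribosomal protein gene rps-20, on its strand, so that reads of the 2 cannot be told apart, and had 7 and 8 counts at 20 days and 24, 28 and 47 counts at 10 days. mir-241 averaged 1321, 485, 483 and 150.3 CPM at 1, 5, 10 and 20 days, and mir-70 averaged 27637, 29767, 20879 and 6176 CPM. mir-237 gave a difference near 0 (0.02 ± 0.24), with averages of 38669.6, 14306, 4462 and 1414 CPM and a fall in both steps. mir-239b (1.34 ± 0.42), mir-2209a (1.07 ± 0.25), mir-228 (0.82 ± 0.24) and mir-246 (0.61 ± 0.20) were among the 6 higher in the later step but were not called so in every setting.

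**Figure D5:**
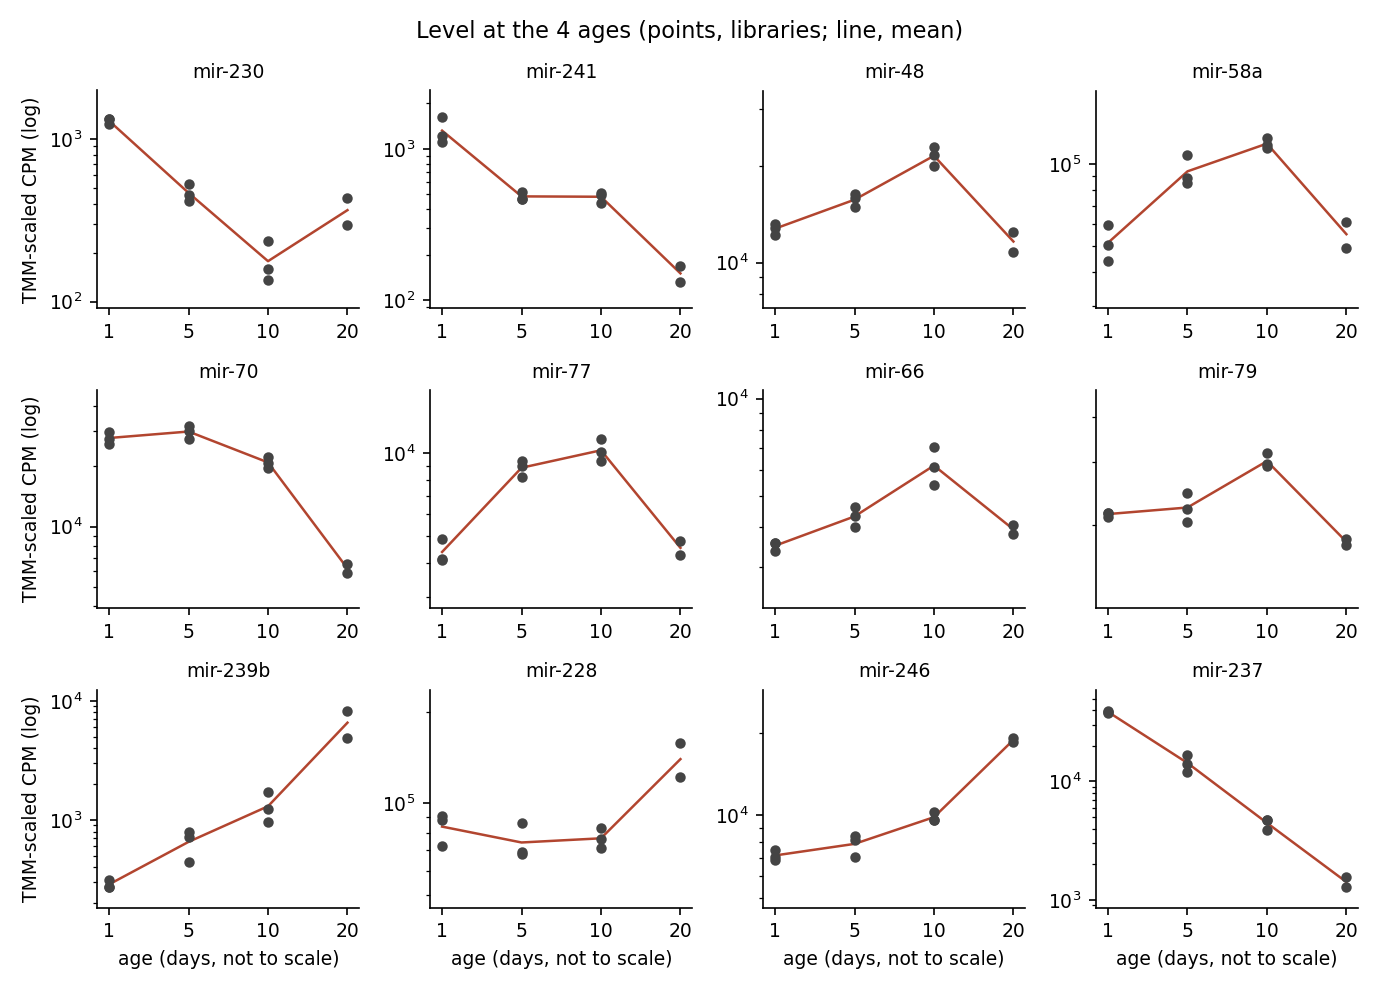
Level of 12 hairpins at 1, 5, 10 and 20 days, in TMM-scaled CPM on log axes that differ between panels; points are libraries (3, 3, 3 and 2) and the line joins the means, with ages evenly spaced and not to scale. mir-230 turned upward after 10 days, mir-58a, mir-77 and mir-48 turned downward, and mir-237 went down at each step.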

How the data were processed

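The authors deposited raw read counts per hairpin, whole numbers whose totals differ between libraries. The submitters' processing notes name SAMtools 1.3.1-9, BWA 0.7.12-r1039, Trimmomatic 0.36 and CASAVA 1.8.4. No source used here gives the reference sequences or says how reads matching several hairpins were counted, so near-identical hairpins are uncertain. Total RNA of whole worms was made into TruSeq small RNA libraries, per the labels' protocols.

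From these counts, hairpins were kept by filterByExpr (minimum count 10, minimum total count 15), scaled by TMM and fitted in edgeR 4.0.16 (R 4.3.3) by quasi-likelihood with 1 term for each age. All 11 libraries entered the fit, since the 2 of 20 days alone would give a poor estimate of spread. The contrast was 20 minus 10 days, tested by quasi-likelihood F-test with Benjamini-Hochberg adjustment over 145 hairpins at a threshold of 0.05. Fold changes used a prior count of 0.125, and SEs were taken as the unshrunk change over the root of its F. The 95% intervals are a normal approximation from the log2 change and SE of the same fit. They take no account of the limited degrees of freedom of the test and can be too narrow. The biological coefficient of variation was 12.5%. Nothing pairs the libraries. Shares, ranks and ratios between hairpins use raw counts with no length correction. No molecular identifiers are named in the labels, so counting precision covers reads and not molecules.

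Named hairpins are, among those called, the 12 that rose most and the 12 that fell most at a mean of 50 CPM or more, the 3 that did so below it, the 5 most abundant, and the tested members of 14 lists: the seed families of mir-58, mir-35, let-7, lin-4, mir-238, mir-2, mir-72, mir-51, mir-50, mir-44 and mir-63, seed pairs, lifespan and tissue-restricted hairpins. mir-354 and mir-1820 fall outside this rule and were named after their values were seen. The members and lists were chosen with earlier results of these data known. Places come from Ensembl release 115 (WBcel235), where 245 of 250 names had 1 place, 3 had no match and 2 had several. let-7 had no match there, and its chromosome, X, was taken from RefSeq. Clusters are hairpins within 10000 bases on 1 strand.

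On simulated counts for 20 against 10 days, over 140 hairpins, 17 of 19 changes of 2-fold and 19 of 20 of 4-fold were recovered, and 1 of 101 unchanged hairpins was called. The simulation gave every hairpin the same spread, drew rises and falls in equal number and held no shift of lane or scaling. These rates need therefore not hold for the real counts. The alternatives changed the scaling (upper-quartile, RLE or total counts), the filter (none, or 50 CPM and more), the tool (limma-voom in limma 3.58.1, DESeq2 1.42.0, robust edgeR), the model (a fixed term for lane) or the libraries (10 and 20 days alone, or each left out). Lane was read as the number following L in each description, a meaning that no label spells out.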

Additional observations from a re-analysis of the deposited data

How the results depend on the processing

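All 21 alternatives had been listed beside the design and none was added. No paired analysis was possible because the labels give no replicate numbers that libraries of different ages share. Calls numbered 65, against 54 to 76 under the other settings and 59 to 80 with 1 library left out. With a library left out 26 to 51 hairpins were higher, 25 to 37 lower, 25 to 34 changed over 2-fold and 23 to 35 took a different course after 10 days. A mean level of 50 CPM or more left 17 over 2-fold and 23 lower, out of fewer hairpins tested (97). With no filter 45 were higher, and with upper-quartile factors 59 took a different course, and the cause was not tested.

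Among named hairpins directions turned only where no call had been made. The log2 changes that turned were mir-40 0.11, mir-35 0.11, mir-794 0.030, mir-51 0.062, mir-229 0.043, mir-50 0.15 and mir-46 0.085 with RLE factors, and mir-40 0.11, mir-35 0.11, mir-794 0.030, mir-51 0.062, mir-229 0.043, mir-50 0.15 and mir-46 0.086 with DESeq2. At a mean of 50 CPM or more they were mir-40 0.087, mir-35 0.10, mir-794 0.015, mir-51 0.046, mir-229 0.026, mir-50 0.13 and mir-46 0.069, and with no filter mir-40 0.14, mir-35 0.14, mir-794 0.066, mir-51 0.088, mir-229 0.071, mir-50 0.18 and mir-46 0.11. Total counts gave mir-40 0.037, mir-35 0.042, mir-50 0.083 and mir-46 0.015, and upper-quartile factors gave mir-84 -0.060, mir-41 -0.066, mir-53 -0.022, mir-55 -0.16, mir-56 -0.18, mir-74 -0.036, mir-86 -0.036 and mir-124 -0.057. Lane as a term gave mir-35 0.034, mir-84 -0.19 and mir-41 -0.10, limma-voom gave mir-58b 0.024 and mir-50 0.0074, and the 5 libraries alone gave mir-50 0.034. Leaving out each library gave -0.13 to 0.23 for mir-40, -0.036 to 0.21 for mir-35, -0.019 to 0.63 for mir-84, -0.18 to 0.24 for mir-794, -0.12 to 0.78 for mir-41, -0.10 to 0.18 for mir-51, -0.024 to 0.73 for mir-53 and -0.026 to 0.30 for mir-55. It gave -0.019 to 0.26 for mir-56, -0.91 to 1.05 for mir-58b, -0.26 to 0.40 for mir-229, -0.30 to 0.17 for mir-250, -0.13 to 0.38 for mir-50, -0.075 to 0.21 for mir-46, -0.31 to 0.0065 for mir-785, -0.35 to 0.32 for mir-87 and -0.018 to 0.40 for mir-124.

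Depth limits the rarer hairpins, where 1 count is worth 0.606 to 1.05 CPM before TMM scaling. With 2 libraries, the spread at 20 days rests mostly on the estimate shared with the other ages.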
